A study of Homo sapiens with 8 samples.

Results

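The 9 genes described here encode the kinases that phosphorylate inositol trisphosphate and its products, ITPKA, ITPKB, ITPKC, IPMK, IP6K1 and IP6K2, and the receptors of inositol trisphosphate, ITPR1, ITPR2 and ITPR3. They were taken by name: every probe set that the platform annotation gives to 1 of these symbols alone was used, which gave 25 of 54675 probe sets, 5 of them for ITPKB and 20 for the 8 other genes. The genes were chosen by the measured change of ITPKB, whose rise ranked 14 among 19775 genes, together with the relatives of its family, so all values of ITPKB are given as a description without a test. RNA of H460, a human line from a non-small-cell carcinoma of the lung, was hybridised to 8 Affymetrix arrays. Per the labels, 4 arrays hold TRAIL-sensitive control cells and 4 hold cells with acquired TRAIL resistance, obtained by daily TRAIL at subtoxic doses over 6 months; TRAIL is a death ligand that starts apoptosis through its receptors. Both groups are the same line in RPMI with serum, and the labels state neither separate cultures, nor whether the resistant cells are 1 clone, nor the time since the last TRAIL dose. Differences are therefore those between these arrays, and resistance cannot be told apart from long exposure or time in culture.

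Inositol trisphosphate (IP3) is released from the membrane lipid PIP2 by phospholipase C. It opens IP3 receptors, which are calcium channels of the endoplasmic reticulum, and calcium that passes to mitochondria through them can promote cell death. The IP3 3-kinases ITPKA, ITPKB and ITPKC end this signal by adding a phosphate to IP3, IPMK builds the higher inositol phosphates, and IP6K1 and IP6K2 make pyrophosphates from inositol hexakisphosphate. IP6K2 has been described as a promoter of apoptosis.

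Values are log2(signal + 1), and changes are resistant minus sensitive in these units, with the limma standard error and 4 arrays per group. A gene is said to rise or fall where its limma p, adjusted by Benjamini-Hochberg over all 54613 probe sets without controls (or over 19775 genes where genes are compared), was below 0.05. The mean level of the median probe set was 5.01, a signal of 31.2, and levels below it are noisy. Array medians lay between signals of 32.6 and 37.5, and each array correlated with the others of its group at 0.937 to 0.952, lowest for sensitive array 1 among sensitive arrays and for resistant array 4 among resistant ones. The 3' minus 5' difference of the ACTB control probe sets was 0.23 on all sensitive and 0.10 to 0.13 on all resistant arrays (exact two-sided permutation p = 0.0286, the smallest possible); that of GAPDH overlapped (p = 0.686). The part of this difference in the results was not tested. Keratin genes of epithelial cells were bright, and 2 of 4 fell. KRT18 lay at 13.18 and 13.12 in sensitive and resistant cells, while KRT19 fell from 12.52 to 11.28 (-1.24, adjusted p = 0.000116) and KRT7 by 0.37 (adjusted p = 0.0299). The summed signal of 6 epithelial markers was 17311 to 20119 on sensitive and 13622 to 16353 on resistant arrays, and its part in the results was not tested. By contrast, EPCAM (4.40 and 3.83) and CDH1 (2.43 and 2.29) lay below the median probe set in both groups.

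ITPKB, the IP3 3-kinase best known from lymphocytes, went from a signal near the bottom of the array to a moderate one. On probe set 203723_at the sensitive arrays 1 to 4 gave signals of 3.15, 11.4, 1.29 and 1.31, and the resistant arrays gave 116, 94.2, 88.7 and 78.6. All resistant arrays lay above all sensitive ones, and sensitive array 2 was the highest of its group. In log2 levels this was 2.02 ± 1.15 (SD, n = 4) against 6.56 ± 0.23, a change of 4.54 ± 0.53. In rank the probe set moved from percentile 11.4 of all probe sets on sensitive arrays to percentile 66.3 on resistant arrays. The size of the change depends on the low end: with a pseudocount of 16 in place of 1 it was 2.46.

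The other ITPKB probe sets fell into a pair that moved with it and a pair that did not. Probe set 235213_at gave sensitive signals of 3.62, 1.24, 2.63 and 1.48 and resistant signals of 35.0, 35.7, 39.8 and 42.7, a change of 3.66 ± 0.24. The 4 resistant values were close together and far above the sensitive ones. Probe set 1554306_at gave log2 levels of 1.70 to 2.60 in sensitive and 3.43 to 4.82 in resistant arrays, a change of 1.87 ± 0.37, again without overlap, though both groups lay below the median probe set. With a pseudocount of 16 these changes were 1.57 and 0.70. The remaining probe sets overlapped between groups: 232526_at gave 3.59 ± 0.88 and 3.36 ± 1.34, and 232499_at gave 3.17 ± 1.07 and 3.48 ± 0.70. So 3 of 5 ITPKB probe sets had groups that did not overlap, all with resistant arrays above, which was the case for 12.5% of all probe sets. Since ITPKB was chosen by its rise, nothing is read from this count. Which part of the transcript each probe set covers was not examined, and the difference between probe sets was not tested.

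**Figure D1:**
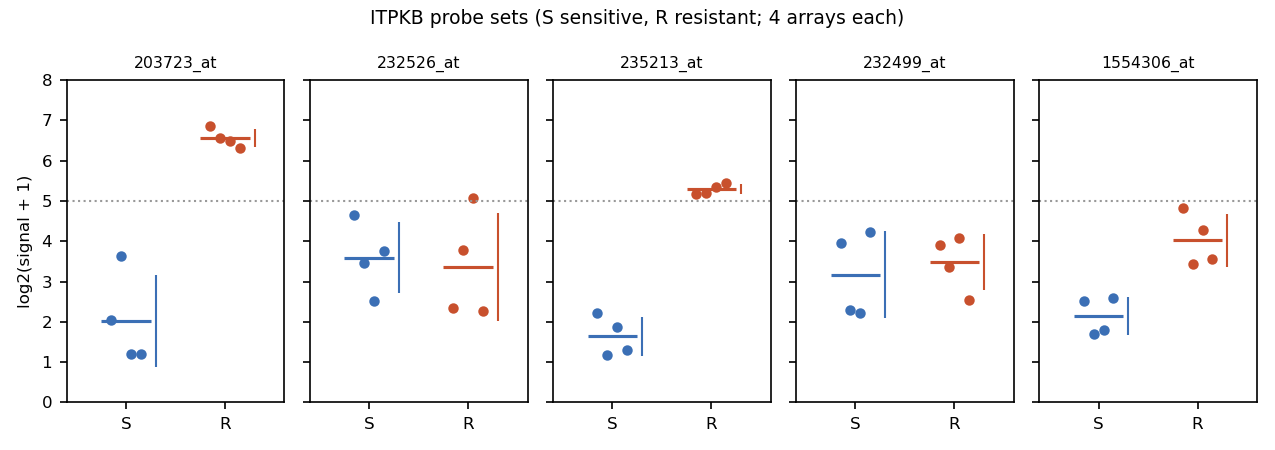
Log2(signal + 1) of the 5 ITPKB probe sets on each array, sensitive (S, blue) and resistant (R, red), 4 arrays each; horizontal bars are means, vertical bars 1 SD, and the dotted line is the median probe set at 5.01. Probe sets 203723_at, 235213_at and 1554306_at are higher on every resistant array, and 232526_at and 232499_at overlap at levels mostly below the dotted line.

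ITPKB is strongly expressed in leukocytes, so markers of these cells were read beside it. Of 8 measured leukocyte markers, limma called 0 higher and 0 lower, where 30.3% of all 19775 genes passed. Of these markers 0 had an unadjusted p below 0.05 in either direction. Their summed signal was 234 to 268 on sensitive and 225 to 267 on resistant arrays. The pan-leukocyte gene PTPRC lay at 2.55 and 3.29, below the median probe set in both groups, and the kinase gene LCK at 3.04 and 2.52. Of the 8 markers 2 had means above the median probe set: the B cell receptor gene CD79A at 6.26 and 5.92, lower on every resistant array without passing (adjusted p = 0.161), and the monocyte gene CD14 at 6.47 and 6.67, with overlapping groups. None of these markers had a signal of 0 on any array. Most of them lay at noisy levels below the median probe set, and a part of leukocytes in the ITPKB change was not tested.

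The promoter of ITPKB is shown beside those of IP6K2 and ITPR3, which fell on their brightest probe sets. RefSeq's GRCh38.p14 table held promoters of 8 of the 9 genes; for ITPR2 none was read. Each line is the 250 bases before the annotated start, read in the direction of the gene: ITPKB chr1:226739283-226739532 on the minus strand, IP6K2 chr3:48717222-48717471 on the minus strand, and ITPR3 chr6:33621072-33621321 on the plus strand. Capitals mark every match, on either strand, to 5 motifs: the GC box GGGCGG, the CCAAT box CCAAT, the TATA box TATAAA, the AP-1 site TGANTCA and the cyclic AMP response element TGACGTCA.
ITPKB: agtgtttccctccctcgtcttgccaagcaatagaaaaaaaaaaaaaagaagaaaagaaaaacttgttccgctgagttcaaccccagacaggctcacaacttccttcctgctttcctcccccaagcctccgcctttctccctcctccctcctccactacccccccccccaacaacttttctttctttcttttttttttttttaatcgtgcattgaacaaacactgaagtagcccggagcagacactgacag
IP6K2: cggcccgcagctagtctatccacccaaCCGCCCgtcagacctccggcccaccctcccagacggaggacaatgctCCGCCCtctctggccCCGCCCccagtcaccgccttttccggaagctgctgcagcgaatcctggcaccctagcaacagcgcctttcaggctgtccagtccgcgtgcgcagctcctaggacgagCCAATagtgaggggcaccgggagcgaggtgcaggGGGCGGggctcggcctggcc
ITPR3: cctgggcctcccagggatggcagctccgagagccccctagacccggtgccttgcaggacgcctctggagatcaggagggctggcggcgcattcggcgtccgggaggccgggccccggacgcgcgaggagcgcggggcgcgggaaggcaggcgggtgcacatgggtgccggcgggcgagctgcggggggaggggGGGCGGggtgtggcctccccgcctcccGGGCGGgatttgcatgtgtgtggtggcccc

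The windows differ in composition. In the ITPKB window 46.4% of bases were G or C, with 5 CpG dinucleotides and no match to any of the 5 motifs; the ITPR1 window, at 64.8%, had no match either. In the IP6K2 window it was 69.2%, with 20 CpG dinucleotides, 4 GC boxes and 1 CCAAT box, and in the ITPR3 window 76.8%, with 26 CpG dinucleotides and 2 GC boxes. Over all 35116 promoters of the table the median was 58.0% with 11 CpG dinucleotides. A GC box was present in 42.6% of them, a CCAAT box in 32.0%, a TATA box in 10.7%, an AP-1 site in 6.57% and a cyclic AMP response element in 1.65%. Genes that did not pass had GC-rich windows too. ITPKA was at 76.8% and ITPKC at 70.4%, with 2 GC boxes each. The windows of IP6K1 were at 63.6% and 77.6%, also with 2 GC boxes each. A match is a description of letters only, and no link between composition and change was tested.

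The other IP3 3-kinases did not pass. ITPKA, the isoform known from neurons, lay at 4.27 ± 0.79 in sensitive and 3.70 ± 1.05 in resistant arrays on its 1 probe set, below the median probe set, with a change of -0.57 (95% interval -1.97 to 0.83). ITPKC, the broadly expressed isoform, lay at 5.68 ± 0.35 and 5.79 ± 0.43, a change of 0.11 (-0.50 to 0.72), which turned to -0.02 without sensitive array 2. The interval for ITPKC leaves room for a change of less than 2-fold in either direction, and that for ITPKA for a larger one.

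IPMK, the multikinase that leads from IP3 to the higher inositol phosphates, had lower levels on both of its probe sets, of which 1 passed. Probe set 238739_at gave 7.19, 7.47, 6.76 and 7.35 on sensitive arrays 1 to 4 and 5.94, 6.68, 6.37 and 5.60 on resistant arrays. The groups did not overlap, though the lowest sensitive and the highest resistant array were 6.76 and 6.68. The fall was 1.04 ± 0.27, or 2.06-fold (adjusted p = 0.0322). This call was lost on leaving out any 1 of 6 arrays, sensitive 1, 2 or 4 or resistant 1, 3 or 4 (changes of -1.12 to -0.86, adjusted p up to 0.0865), and without sensitive array 1 and resistant array 4 together (-0.86, adjusted p = 0.108). Probe set 239878_at gave 6.57 ± 0.32 and 5.80 ± 0.51, a change of -0.77 ± 0.28 (adjusted p = 0.106), with overlapping groups. It passed with an intensity trend and robust prior (adjusted p = 0.0321) and when dim probe sets were dropped (adjusted p = 0.0369).

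IP6K2 fell on both of its probe sets. Probe set 218192_at gave 8.57, 8.64, 8.46 and 8.59 on sensitive arrays 1 to 4 and 7.89, 7.85, 7.95 and 7.91 on resistant arrays. Each group spread far less than the distance between them, and the fall was 0.67 ± 0.09, or 1.59-fold (adjusted p = 0.00198). Probe set 223165_s_at gave 9.48, 9.21, 9.42 and 9.36 against 8.83, 8.74, 8.89 and 8.89, a fall of 0.53 ± 0.10, or 1.44-fold (adjusted p = 0.00922), again without overlap. Its paralogue IP6K1 lay at 7.95 ± 0.22 and 7.92 ± 0.10, a change of -0.03 (95% interval -0.35 to 0.28, adjusted p = 0.903), whose sign turned after median centring (0.04). The interval of IP6K1 does not reach the estimates of either IP6K2 probe set, but the difference between the paralogues was not tested.

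Among the receptors, ITPR3 passed as a fall on its brightest probe set and did not pass on the others. Probe set 201189_s_at gave 9.83, 9.80, 9.87 and 9.76 on sensitive arrays 1 to 4 and 9.14, 8.88, 9.12 and 8.89 on resistant arrays. The sensitive arrays lay within 9.76 to 9.87 and the resistant ones within 8.88 to 9.14. The fall was 0.81 ± 0.10, or 1.75-fold (adjusted p = 0.00174), and it passed under every alternative run for it. Probe set 201188_s_at gave 8.41, 7.70, 7.98 and 8.47 against 7.95, 8.10, 8.35 and 8.27, a change of 0.03 (95% interval -0.44 to 0.49), with resistant arrays inside the range of the sensitive ones. The 2 dimmer probe sets lay at 5.03 and 3.89 (201187_s_at) and at 4.18 and 3.93 (239542_at), neither of which passed (adjusted p = 0.312 and 0.611). Their changes were -1.14 (95% interval -2.73 to 0.45) and -0.25 (-0.91 to 0.41). Both intervals include the estimate of the brightest probe set. Resistant array 3 alone stood at 1.73 on 201187_s_at, where the other resistant arrays were at 4.47 to 4.71.

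ITPR1 also differed by probe set. On 211323_s_at the sensitive arrays gave 8.82, 8.69, 8.66 and 8.87 and the resistant arrays 8.13, 8.06, 8.36 and 8.23. The groups stood apart, and the fall was 0.57 ± 0.11, or 1.48-fold (adjusted p = 0.0101). On 203710_at the sensitive arrays gave 8.49, 8.63, 8.86 and 8.74 and the resistant arrays 8.79, 8.70, 8.74 and 8.57. These overlapped, with a change of 0.02 (95% interval -0.25 to 0.29, adjusted p = 0.929). Probe set 216944_s_at changed by -0.16 (-0.38 to 0.06), and the dim probe sets 240052_at and 1562373_at by 0.40 (-0.34 to 1.13) and 0.84 (-1.22 to 2.90). None of these passed.

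ITPR2 was the receptor gene with a rise, on 1 dim probe set. Probe set 211360_s_at gave 4.02, 4.13, 4.10 and 4.68 on sensitive arrays 1 to 4 and 5.08, 4.92, 4.92 and 5.81 on resistant arrays. The groups did not overlap, and in each the array numbered 4 was the highest. The rise was 0.95 ± 0.25, or 1.93-fold (adjusted p = 0.0341), and it did not pass without sensitive array 1, 2 or 3 or without resistant array 1, 2 or 3 (adjusted p up to 0.0849), nor without sensitive array 1 and resistant array 4 together (0.67, adjusted p = 0.0765). With a pseudocount of 16 it was 0.61. The brighter probe sets 202662_s_at and 202660_at changed by 0.19 (95% interval -0.13 to 0.51) and 0.30 (-0.17 to 0.76) and 202661_at by 0.05 (-0.49 to 0.60), and these did not pass. The difference between the probe sets of a receptor was not tested.

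**Figure D2:**
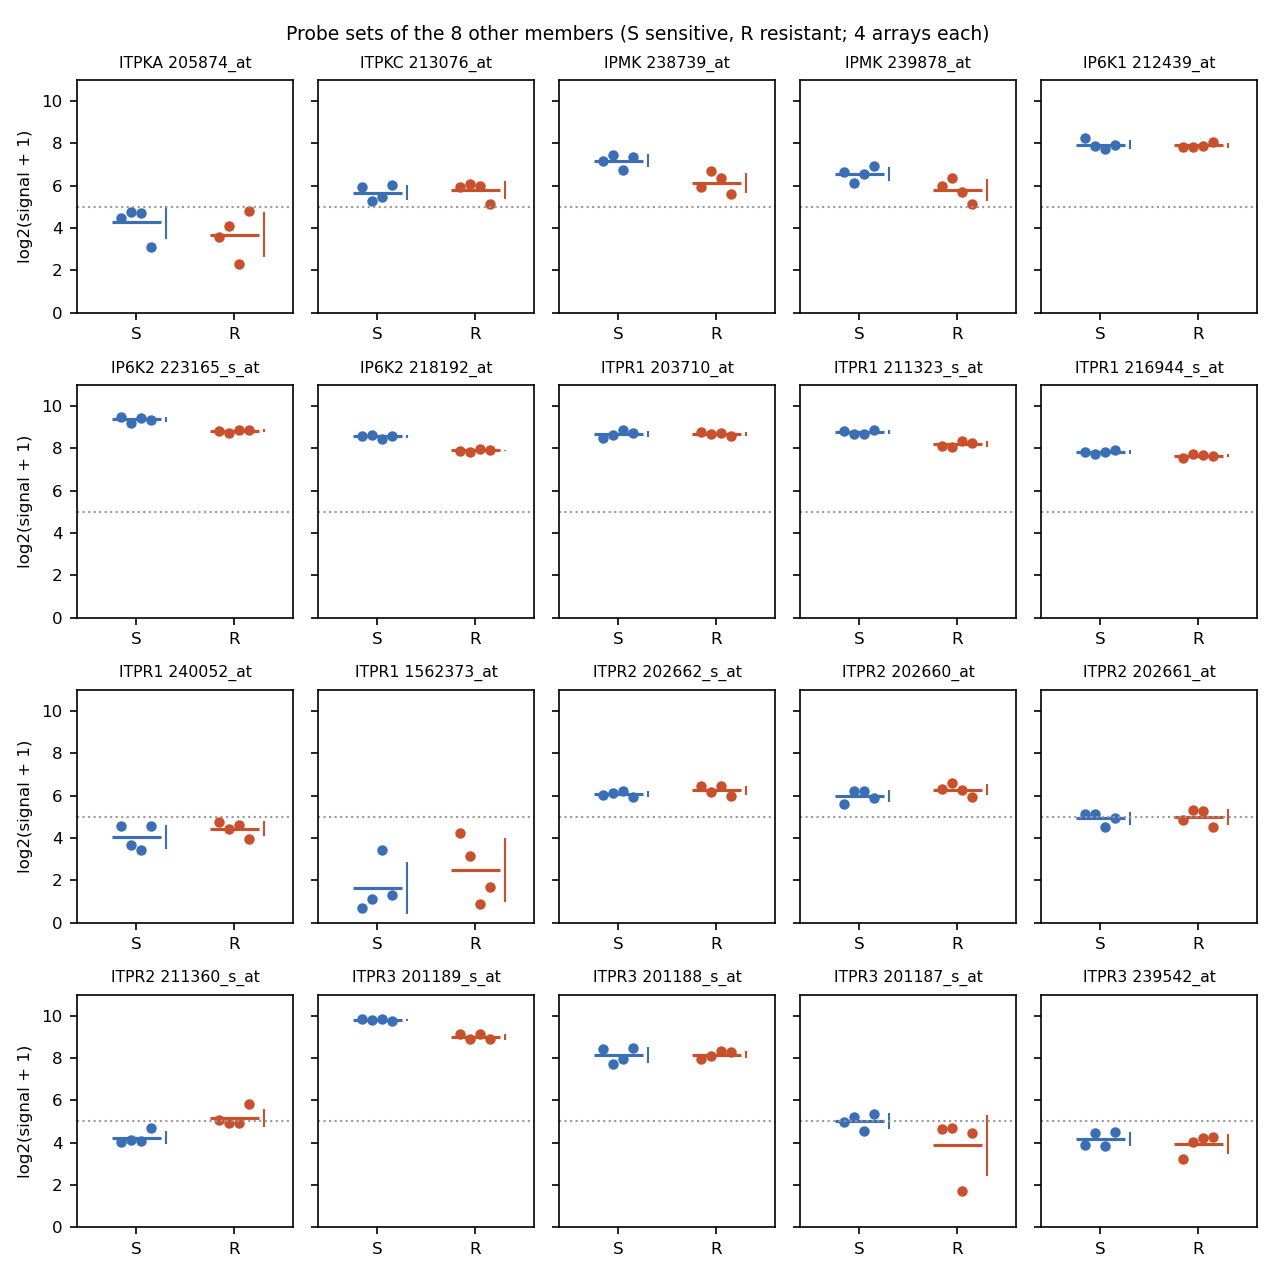
Log2(signal + 1) of the 20 probe sets of the 8 other genes on each array, sensitive (S, blue) and resistant (R, red), 4 arrays each; horizontal bars are means, vertical bars 1 SD, and the dotted line is the median probe set at 5.01. The groups are apart for IPMK 238739_at, both IP6K2 probe sets, ITPR1 211323_s_at, ITPR2 211360_s_at and ITPR3 201189_s_at, and overlap on the other 14.

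Over the 20 probe sets of the 8 genes other than ITPKB, 1 rose, 5 fell and 14 did not pass. Over all probe sets 19.5% passed, 9.13% higher and 10.4% lower, and among those above the median level 34.2% passed. The 5 falls were all among the 13 probe sets above the median level. The median change was -0.10 over the 20 probe sets and -0.04 over all probe sets. Since the genes were chosen with this contrast in view, nothing is read from these shares. The groups were apart for the same 6 probe sets, 1 higher and 5 lower, where 26.4% of all probe sets had groups that did not overlap. In bulk RNA, fewer cells with a transcript and less of it per cell cannot be told apart.

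**Figure D3:**
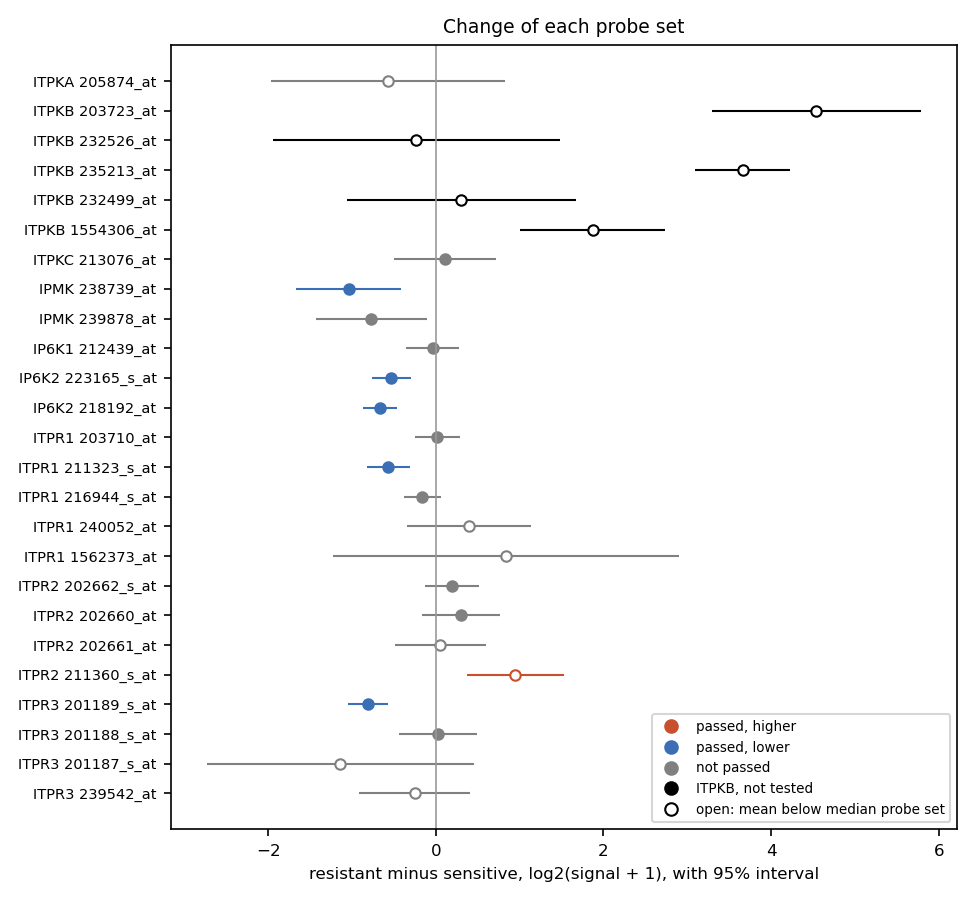
Change of each of the 25 probe sets, resistant minus sensitive in log2(signal + 1), with its 95% interval from limma; open circles are probe sets whose mean lies below the median probe set. ITPKB, in black and not tested, reaches 4.54, while the tested probe sets lie between -1.14 and 0.95.

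The genes around these in the pathway moved in both directions. Of 105 measured genes in 8 lists, 15 rose, 22 fell and 68 did not pass. Among all 19775 genes 30.3% passed, 14.7% higher and 15.6% lower. The groups did not overlap for 33.9% of all genes. The median change of the 105 genes was -0.03, as over all genes. Among 5 other kinases of inositol phosphates, ITPK1, which acts on inositol tetrakisphosphates and related species, fell by 0.73 (adjusted p = 0.000931), and PPIP5K2, which adds pyrophosphates, rose by 0.75 (adjusted p = 0.00587). IPPK, which makes inositol hexakisphosphate, changed by 0.13, PPIP5K1 by -0.51 and IP6K3, a dim gene, by 0.73, and these did not pass. IPPK lay at 8.81 ± 0.06 and 8.94 ± 0.04 without overlap, but its change turned to -0.05 when its probe sets were averaged. On probe sets that carry no cross-hybridisation suffix ITPK1 changed by -0.24 (adjusted p = 0.440) and IPPK by -0.23.

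The list of inositol phosphate phosphatases and of inositol synthesis, turnover and uptake was split, with 4 of 14 genes higher, 2 lower and 8 not passing. INPP5A, a phosphatase that removes a phosphate from IP3 and so shares a substrate with ITPKB, gave the largest rise of all 8 lists, from 8.40 ± 0.26 to 10.15 ± 0.24, a change of 1.75 (3.36-fold, adjusted p = 0.000315). SLC5A3, a sodium-coupled inositol carrier, rose by 0.59 (adjusted p = 0.0123), although not without sensitive array 1 and resistant array 4 together (0.46, adjusted p = 0.0543). The proton-coupled inositol carrier SLC2A13 fell by 1.24 (adjusted p = 0.000520) and IMPA2, an inositol monophosphatase, by 1.07 (adjusted p = 0.000334). The median change of this list was 0.09, and over all genes 14.7% rose and 15.6% fell.

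Of 12 measured phospholipase C genes, whose enzymes make IP3, 4 fell, 8 did not pass and limma called 0 higher, with 0 higher and 4 lower at an unadjusted p below 0.05. Their median change was -0.35, and over all genes 30.3% passed, 14.7% higher and 15.6% lower. PLCG2 fell from 7.74 ± 0.04 to 6.68 ± 0.24 (-1.07, adjusted p = 0.000655), PLCD4 by 1.12 (adjusted p = 0.0239), PLCB4 by 0.45 (adjusted p = 0.00617) and PLCB1 by 0.36 (adjusted p = 0.0170). With its probe sets averaged PLCG2 changed by -0.40 (adjusted p = 0.288). PLCB1 missed the threshold after median centring (-0.29, adjusted p = 0.0615) or without resistant array 1 or 3 (adjusted p up to 0.0518), and PLCD4 without sensitive array 2 or 4 or resistant array 1 (adjusted p up to 0.0600). Of 14 genes that supply PIP2, 4 rose, 3 fell and 7 did not pass, with a median change of 0.19. CDIPT, the phosphatidylinositol synthase, rose by 0.60 (adjusted p = 0.00219) and PIP4K2B by 0.54 (adjusted p = 0.00801; 0.34 with its probe sets averaged), and CDS1, a CDP-diacylglycerol synthase, fell by 0.81 (adjusted p = 0.00762). PIP5K1B, a kinase that makes PIP2, fell by 0.63 (adjusted p = 0.00603), but its probe set without a cross-hybridisation suffix changed by 0.45 (adjusted p = 0.509). With probe sets averaged per gene neither PIP5K1B (-0.09, adjusted p = 0.805) nor CDS1 (-0.36, adjusted p = 0.336) passed, and PIP5K1B missed with an intensity trend (adjusted p = 0.0708). CDS1 lay at 5.38 and 4.56 in sensitive and resistant arrays, with its mean below the median probe set. Resistant levels of PIP5K1B (4.71) and PLCD4 (4.53) were also below the median probe set.

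Of 17 measured genes whose products bind, regulate or degrade IP3 receptors, 1 rose, 6 fell and 10 did not pass, with a median change of -0.21. Among all genes, 14.7% rose and 15.6% fell. AHCYL1, known as IRBIT, which competes with IP3 for the receptor, lay at 11.51 ± 0.06 and 10.90 ± 0.06, a fall of 0.61 (adjusted p = 0.000566). RNF170, a ubiquitin ligase of the receptor, fell by 0.61 (adjusted p = 0.00612), and the scaffold gene HOMER1 by 0.80 (adjusted p = 0.00256), while its relative HOMER3 rose by 0.58 (adjusted p = 0.00156). With probe sets averaged per gene the falls were smaller for AHCYL1 (-0.38) and RNF170 (-0.36), and both still passed. For store calcium, 2 of 16 genes rose, 1 fell and 13 did not pass, with a median change of -0.06. ATP2A2, the calcium pump that fills the store, rose from 11.84 ± 0.08 to 12.45 ± 0.10 (0.61, adjusted p = 0.00131). TMCO1, a calcium leak channel of the reticulum, rose by 0.56 (adjusted p = 0.00957), and ORAI3, a store-operated channel subunit, fell by 0.81 (adjusted p = 0.00602).

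Of 8 genes of mitochondrial calcium uptake, limma called 0 higher (1 at an unadjusted p below 0.05) and 1 lower, and 7 did not pass, with a median change of -0.07. The 1 that fell was HSPA9, a chaperone described at contacts of the receptor with mitochondria, by 0.31 (adjusted p = 0.0255). Its probe set without a cross-hybridisation suffix went the other way, by 0.26 (adjusted p = 0.0467). HSPA9 missed the threshold after median centring (-0.24, adjusted p = 0.0938), with its probe sets averaged (-0.17, adjusted p = 0.159), or without any 1 of sensitive arrays 2, 3 and 4 or of resistant arrays 1, 2 and 3 (adjusted p up to 0.0721). Of 19 genes of calmodulin kinases, calcineurin and NFAT, 3 rose, 4 fell and 12 did not pass, with a median change of 0.08. Beside both lists, 14.7% of all genes rose and 15.6% fell. NFATC2, a transcription factor activated by calcineurin, went from 5.95 ± 0.24 to 3.37 ± 1.20, below the median probe set (-2.58, adjusted p = 0.0115), and not past the threshold without sensitive array 1 and resistant array 4 together (-2.38, adjusted p = 0.0509). Its change was -1.51 with a pseudocount of 16 and -1.21 with its probe sets averaged, and it passed in both. CAMK2D fell by 0.83 (adjusted p = 0.000122), CAMKK1 by 0.78 (adjusted p = 0.0270), and the calcineurin subunit gene PPP3CA rose by 0.52 (adjusted p = 0.00159). With its probe sets averaged CAMK2D (-0.32, adjusted p = 0.127) did not pass. CAMKK1 did not pass with such an average (-1.03, adjusted p = 0.0544) or without any 1 of sensitive arrays 1, 3 and 4 or of resistant arrays 1, 2 and 3 (adjusted p up to 0.0676).

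**Figure D4:**
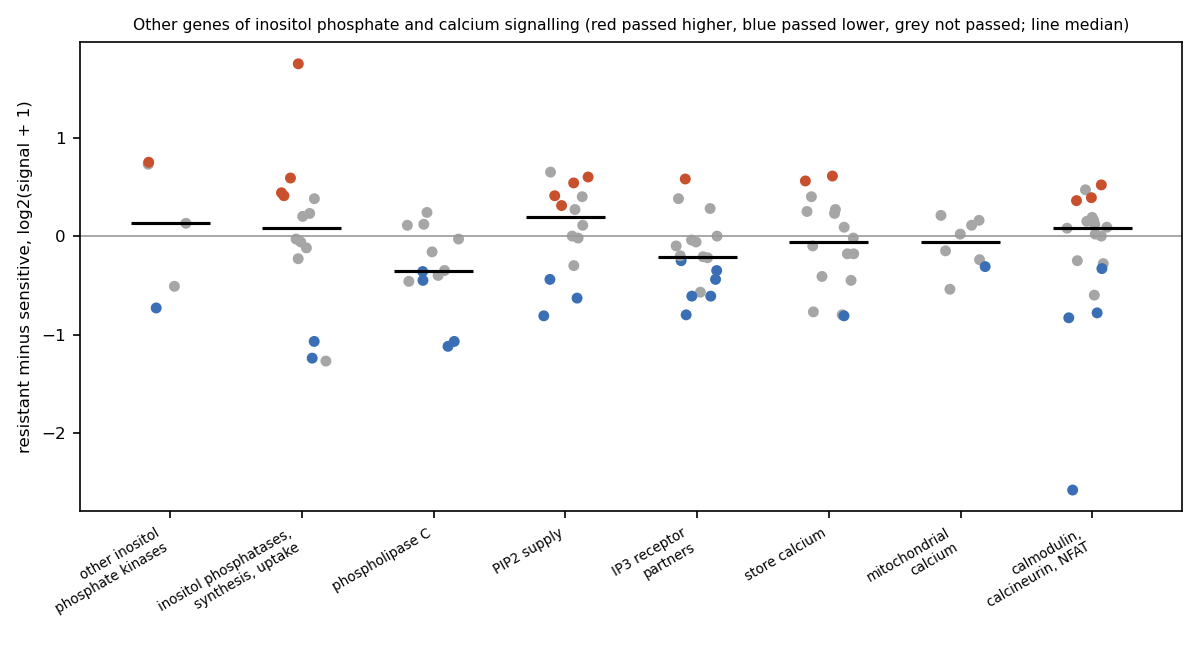
Change of each of the 105 measured genes in 8 lists of inositol phosphate and calcium signalling, resistant minus sensitive in log2(signal + 1); red points passed higher, blue points passed lower, grey points did not pass, and lines are list medians. The highest point is INPP5A at 1.75 and the lowest NFATC2 at -2.58.

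The genes whose levels followed ITPKB most closely over the 8 arrays were KRI1 (Pearson r = 0.991), ARMCX3 (0.989), ATAD3A (0.988), VWA1 (0.987) and UBE2QL1 (0.987). These are descriptions over 8 arrays that form 2 groups, and 1365 of the other genes had r above 0.9. Each of the 5, picked for its high r over these same arrays, was highest among sensitive arrays on array 2, as ITPKB was. Their own changes were smaller, from 0.46 for ATAD3A to 1.85 for UBE2QL1.

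Genes beside ITPKB on chromosome 1 are given as a description. ITPKB was chosen for its large rise, so smaller changes beside it say nothing about the region, which was not tested. ITPKB spans positions 226631690 to 226739282 of GRCh38.p14. Of the 10 nearest measured genes, 5 on each side, 3 rose, 1 fell and 6 did not pass, the last with changes of -1.20 to 0.03. Over all genes 14.7% rose and 15.6% fell. Among those that did not pass, MIXL1, STUM and ITPKB-IT1 had means below the median probe set. PARP1, a DNA damage sensor, rose by 0.89 (adjusted p = 0.000133), PSEN2, a presenilin, by 0.95 (adjusted p = 0.000748) and COQ8A by 0.78 (adjusted p = 0.00297), and ZNF678 fell by 0.55 (adjusted p = 0.000777). With probe sets averaged PSEN2 rose by 0.61, and ZNF678 missed the threshold (-0.19, adjusted p = 0.477). ITPKB-IT1, listed next to ITPKB, lay at 3.15 ± 0.42 and 3.11 ± 0.75, a change of -0.04 (95% interval -0.97 to 0.89), whose sign turned under several settings.

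**Figure D5:**
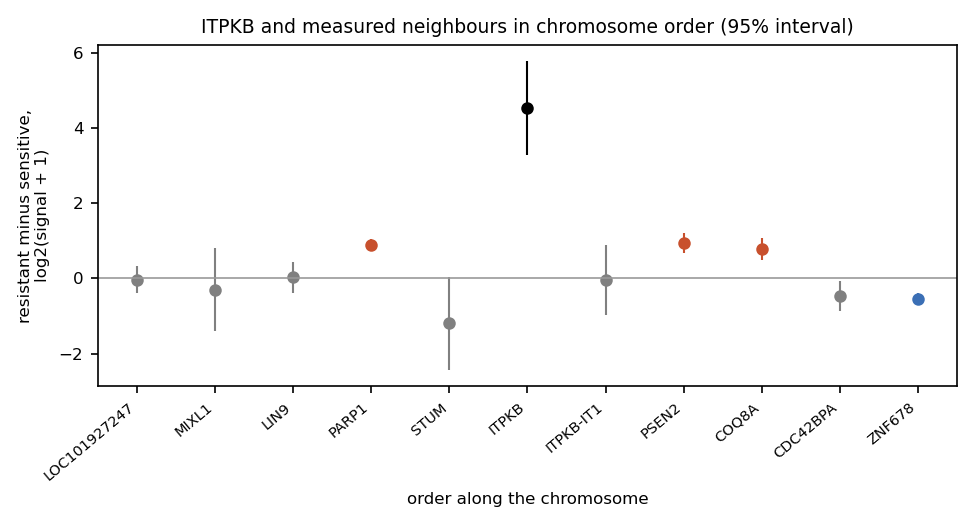
Change of ITPKB (probe set 203723_at, black, not tested) and of its 10 nearest measured genes in chromosome order, resistant minus sensitive in log2(signal + 1), with 95% intervals from limma; red passed higher, blue passed lower, grey did not pass. ITPKB stands at 4.54 and its neighbours between -1.20 and 0.95.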

How the data were processed

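The authors deposited linear intensity values of 54675 probe sets on 8 arrays. The submitters' processing notes name RMA, but the mean left after trimming 2% at each end was 200 on every array, as in MAS 5-type signals, so how they were made is not settled. Each deposited intensity value was turned into log2(signal + 1) with no further normalization. The added 1 shrinks changes of dim genes, and noise at low signals leaves their size uncertain. ITPKB 203723_at changed by 4.54 with it and by 2.46 with a pseudocount of 16. Control probe sets (62) were left out. Names came from the platform annotation, in which 41097 probe sets had 1 symbol, and were updated through gene identifiers to RefSeq (41043 matched). For the lists, the probe set of highest mean stood for its gene. R 4.3.3 and limma 3.58.1 (lmFit, eBayes) were used, with Benjamini-Hochberg adjustment and a threshold of 0.05; the fit was tested on simulated data. No filter on dim values was applied. Precision is limited by having 4 arrays per group. Of each list, up to 4 passing genes with the largest changes were named, and lists of 5 genes were given whole; of the 10 neighbours of ITPKB, those that passed and ITPKB-IT1. Alternatives covered the replicate block, pseudocount, prior, weights, dim probe sets, scaling, probe set choice and leaving out arrays. The genes and lists were chosen with earlier results of these data known. Of the marker lists, 0 of 6 epithelial markers rose and 2 fell, 0 rose and 2 fell of 6 fibroblast markers, and 0 rose and 0 fell of 5 endothelial markers by limma (at an unadjusted p below 0.05, 0 higher in each list and 3, 2 and 0 lower). Over all genes 14.7% rose and 15.6% fell. The fibroblast genes that fell were LUM, from 5.75 to 2.48 (-3.27, adjusted p = 0.00337), and PDGFRB, from 5.94 to 4.82 (-1.12, adjusted p = 0.0148). The mean of LUM lay below the median probe set.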

Additional observations from a re-analysis of the deposited data

Results flagged for a closer look

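In 5 of 118 groups of 4 arrays, 1 array lay far from the others of its group, by Dixon's 95% critical value for the gap over the range (chance gives about 1 in 20 groups). ITPKC 213076_at stood at 5.16 on resistant array 4, the others at 5.94 to 6.08. ITPR2 211360_s_at stood at 4.68 on sensitive array 4, the others at 4.02 to 4.13. ITPR3 201187_s_at stood at 1.73 on resistant array 3, the others at 4.47 to 4.71. PIP4K2B stood at 8.18 on resistant array 4, the others at 7.95 to 7.98. AHCYL1 stood at 11.42 on sensitive array 1, the others at 11.53 to 11.54.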

How the results depend on the processing

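Of 36 tested probe sets of the 8 genes and named genes that passed, 20 passed under every alternative run for them, and 34 never changed direction under these (PIP5K1B and HSPA9 did). Replicate numbers showed no clear pairing of the arrays (correlations of same-numbered arrays' deviations from -0.025 to 0.015). Of 4 sensitive arrays, 2 were closest to their own number. The labels state no pairing, and these values do not exclude it. With the replicate block the probe sets called fell from 6 to 3 of the 20, those lower from 5 to 2, and those over all probe sets from 10637 to 5062, and pathway genes from 37 to 30. The 3 falls that missed the threshold with it were IPMK 238739_at (adjusted p = 0.0870), IP6K2 223165_s_at (0.0584) and ITPR1 211323_s_at (0.0695). Of the named genes, SLC5A3 (adjusted p = 0.0685), PLCB1 (0.0672) and HSPA9 (0.0667) also missed the threshold with the block. The block has fewer residual degrees of freedom. Removing sensitive array 1 together with resistant array 4, called the joint removal below, was chosen after seeing the data. The count of rises, 1 for ITPR2, was 0 with dim probe sets left out, since its probe set is dim, and with that joint removal. Leaving out each array gave 4 to 5 calls, 0 to 1 higher and 4 to 5 lower, 29 to 38 pathway genes, 7885 to 10134 probe sets and 4928 to 5776 genes. The change of ITPKB 203723_at was 4.26 to 5.08 then, and 2.46 with a pseudocount of 16.

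Counts per list moved by over 1.5 times for 5 lists over the alternatives: other inositol kinases from 2 to 0 at the lowest, phospholipase C from 4 to 2, store calcium from 3 to 5, mitochondrial calcium from 1 to 0 or 3, and calmodulin and calcineurin from 7 to 4. For other inositol kinases the 0 came with only probe sets that carry no cross-hybridisation suffix. PPIP5K2 had no such probe set, and it passed in all 17 alternatives run for it. The median shift of the changes was 0.073 after median centring and 0.052 after quantile normalization. Signs turned for changes near 0 and for PIP5K1B and HSPA9, which had passed, and the cause was not tested. IP6K1 became 0.00129 after quantile normalization, 0.04 after median centring and 0.02 under the joint removal. Leaving out each array gave ranges of -0.02 to 0.32 for ITPKC, -0.10 to 0.07 for IP6K1, -0.04 to 0.08 for ITPR1 203710_at, -0.09 to 0.21 for ITPR2 202661_at, -0.12 to 0.14 for ITPR3 201188_s_at and -0.24 to 0.32 for ITPKB-IT1. ITPKB-IT1 became 0.01 with a pseudocount of 16, 0.19 with array weights, 0.02 after quantile normalization, 0.03 after median centring and 0.37 under the joint removal. IPPK became -0.05 with the mean of all probe sets. On probe sets that carry no cross-hybridisation suffix IPPK became -0.23, PIP5K1B 0.45 and HSPA9 0.26. Low signals limit the results, since 7 of the 20 probe sets and all 5 of ITPKB had means below the median probe set.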
